A study of Drosophila melanogaster with 10 samples.

Results

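The proteasome subunit genes were taken as the genes of the count table whose FlyBase symbol begins with Rpn or Rpt and a number, or with Prosalpha or Prosbeta. The rule found 48 genes among 17807 gene IDs. They comprise 32 main subunits, of which 14 belong to the core particle and 18 to the regulatory particle, and 16 paralogs whose symbol ends in R or T with or without a number. RNA had been sequenced from wing imaginal disks of late larvae kept at 25 °C, with about 70 disks per sample and 2 samples in each of 5 groups. In every group MS1096-Gal4, which is active mainly in the wing pouch, drove a transgene: GFP in the control, full-length Nkd, NkdΔR1S without the Dsh-binding region, or NkdΔ30aa or NkdΔD6, each without a potential nuclear localization signal. Cells of the disk outside the driver domain were in the same RNA samples. The duplicates of a group are described as biological, but separate crosses are not named. P-values therefore measure only how far these samples spread, and that spread may be technical in part.

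The proteasome degrades proteins that carry ubiquitin chains. Its core particle is a barrel with outer rings of alpha subunits, which gate the entrance, and inner rings of beta subunits, of which beta1, beta2 and beta5 are the proteases. The regulatory particle caps the barrel. Its base holds the Rpt ATPases, which unfold and thread the substrate, the scaffold subunits Rpn1 and Rpn2 and the ubiquitin receptors Rpn10 and Rpn13, while its lid holds the deubiquitinase Rpn11 with its partner Rpn8 and structural subunits. In *Drosophila* many subunits have a second gene, and several of these paralogs are used in the male germline.

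Libraries held 18695697 to 20941842 counts, of which the 48 genes took 0.886% to 1.02%. All 10 markers of the wing disk (nub, vg, rn and others) had counts in all libraries, and their summed level was 1475 and 1570 CPM (counts scaled to an equal TMM-adjusted library size) in NkdΔ30aa against 802 and 1034 in GFP and 919 to 1174 in the other 6 libraries. Markers of other tissues varied within and between groups: the summed level of 7 salivary gland genes was 15981 and 200 CPM in Nkd replicates 1 and 2 and 5137 and 648 in GFP replicates 1 and 2, against 54.7 to 1480 CPM in the other 6 libraries. The sums also varied for fat body (504 to 3339 CPM), gut (17.4 to 3579), larval muscle (85.6 to 369) and blood cells (166 to 536, with 536 and 467 in NkdΔ30aa against 166 and 228 in GFP). Their part in the results was not tested, and fewer cells of a type and less RNA per cell cannot be told apart in these bulk samples. *nkd* itself was at 37.3 and 70.1 CPM in GFP disks and at 345 to 1498 CPM in the libraries with an Nkd transgene, lowest in NkdΔR1S. Libraries also differed in how many counts long genes had compared with short ones. Over all genes, Spearman correlations of length with the log2 level in a library, taken relative to the 10-library mean, ran from -0.616 in GFP replicate 1 to 0.620 in NkdΔ30aa replicate 1. This touches the proteasome genes directly, because the 14 core genes have a median exon length of 971 bases (815 to 1215), the 18 regulatory genes one of 1589 bases (995 to 3412) and all genes tested one of 2020 bases.

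Levels were compared between genes as TMM-scaled CPM per kilobase of exon (RPKM), averaged over the 10 libraries. Among the main subunits, 13 core genes formed the upper block, from *Prosalpha4* at 449 RPKM, *Prosbeta1* at 424 and *Prosalpha3* at 402 down to *Prosbeta6* at 306. The mean of each lay above the mean of every regulatory subunit. The regulatory genes ran from *Rpn12* at 263, *Rpn7* at 237 and *Rpt3* at 229 RPKM down to *Rpn8* at 119, *Rpn1* at 111 and *Rpn2* at 87.4 RPKM. Neighbors in this order differed by little: *Prosbeta7* and *Prosbeta3* both had a mean of 336 RPKM, and the 10 libraries of adjacent genes overlapped throughout both blocks. In GFP disks the 13 core genes ranked between the 97.1 and the 98.3 percentile of all genes tested, and the regulatory genes between 80.7 and 96.8.

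**Figure D1:**
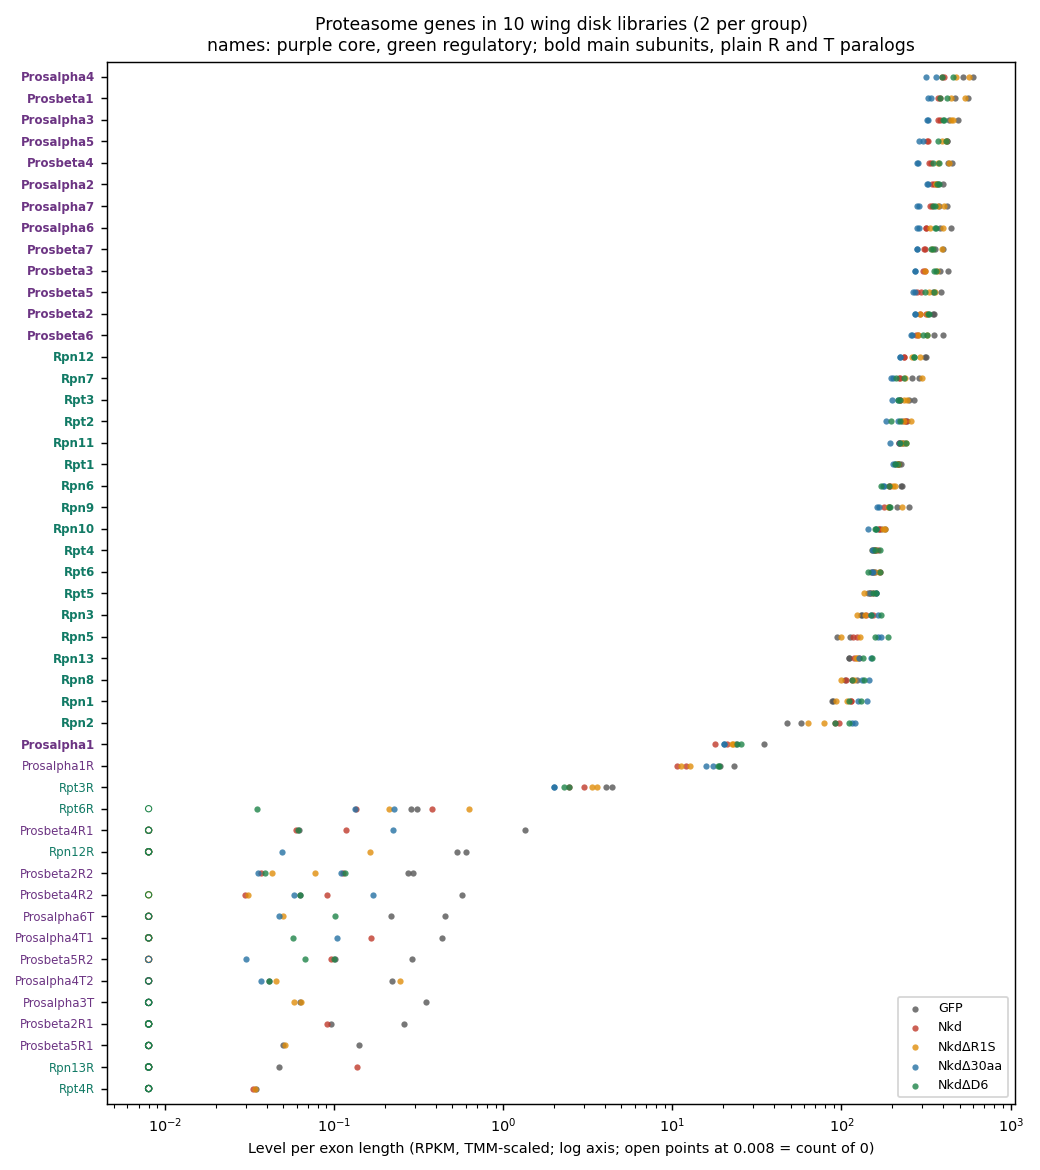
Level of each of the 48 proteasome genes in 10 libraries, as RPKM on a log axis. Colors mark the groups, bold names the main subunits and open points a count of 0. The 13 core genes at the top have means of 306 to 449 RPKM, the regulatory genes 87.4 to 263, and the 13 paralogs at the bottom means under 0.19 RPKM.

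*Prosalpha1*, an alpha-ring gene, stood apart from the core block at 23.3 RPKM. Its level was 23.8 and 34.9 RPKM in GFP, 21.1 and 17.9 in Nkd, 22.7 and 22.4 in NkdΔR1S, 20.1 and 20.2 in NkdΔ30aa, and 25.6 and 24.1 in NkdΔD6 disks. *Prosalpha1R*, its paralog, lies 1.734 kb away on chromosome 2R and was at 10.7 to 23.2 RPKM. The values of the pair overlapped, and those of *Prosalpha1R* were the highest among the paralogs. The sources used here do not state how reads that match more than 1 gene were counted, and the sequences of the pair were not compared, so the level of either gene is uncertain.

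The remaining paralogs were scarce. *Rpt3R*, a paralog of an ATPase gene (3R from 9754735 to 9756510, BDGP6), had 60 to 124 counts per library, a mean of 2.95 RPKM, and *Rpt6R* had 0 to 16 counts. The other 13, including the T genes of the alpha ring, had no more than 20 counts in any library and did not pass the filter on low counts. Their summed counts were 84 and 47 in GFP, 11 and 12 in Nkd, 4 and 15 in NkdΔR1S, 6 and 16 in NkdΔ30aa, and 8 and 8 in NkdΔD6 disks. Both GFP libraries were thus above the other 8. The highest single values were *Prosbeta4R1* with 20 and *Prosbeta4R2* with 17 counts in GFP replicate 1, neighbors 1.467 kb apart on 2L, while *Rpn12R* had 9 and 11 counts in GFP replicates 1 and 2 and 0 to 3 elsewhere. Of the 12 testis markers matched, some moved with them and others did not. *Mst84Db* had 377 and 35 counts and *Mst87F* 297 and 55 counts in GFP replicates 1 and 2, against at most 25 of either in the other libraries. In contrast *mia*, which made up most of the list's counts outside GFP replicate 1, had 377 and 383 counts in GFP and 326 to 452 elsewhere, and *bam* had 1 and 6 against 1 to 11. The summed level of the 12 was 61.3 and 25.8 CPM in GFP and 17.4 to 25.5 CPM elsewhere, with *Mst84Da* at 0 throughout and *comr* at 0 in 9 libraries. The part of germline RNA in the paralog counts was not tested. A count of 3, the limit that a count of 0 allows, equals 0.140 to 0.169 CPM and covers counting error only.

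The core and regulatory genes were next compared within each library, where the scaling between libraries cancels. The median core level was 2.48 and 2.30 times the median regulatory level in GFP disks, 1.91 and 1.96 times in Nkd, 2.34 and 2.05 in NkdΔR1S, 1.77 and 1.73 in NkdΔ30aa, and 2.05 and 2.27 in NkdΔD6. The 4 Nkd and NkdΔ30aa libraries were below the other 6. The NkdΔR1S and GFP libraries overlapped. On the TMM scale the core median was 401 ± 30.4 RPKM in GFP disks (SD, n = 2), 319 ± 1.48 in Nkd, 375 ± 31.2 in NkdΔR1S, 282 ± 3.39 in NkdΔ30aa and 355 ± 7.02 in NkdΔD6. The regulatory median was between 158 and 172 RPKM in all 10 libraries. Scaled to TPM (length-normalised counts with an equal total in every library), the order changed: the core median was 478 ± 3.34 TPM in GFP disks, 485 ± 24.7 in Nkd, 498 ± 17.0 in NkdΔR1S, 464 ± 14.4 in NkdΔ30aa and 526 ± 12.3 in NkdΔD6, and the regulatory median rose from 200 ± 9.71 TPM in GFP to 266 ± 12.9 TPM in NkdΔ30aa. TPM moved all genes as well, with a median log2 ratio to GFP of 0.30, 0.12, 0.33 and 0.21 for Nkd, NkdΔR1S, NkdΔ30aa and NkdΔD6. The core level in Nkd and NkdΔ30aa was thus below GFP by more than the spread on the TMM scale but not in TPM. With RLE scaling, used in place of TMM, it was below as well. The core median was then 401 and 369 RPKM in GFP, 326 and 325 in Nkd and 279 and 285 in NkdΔ30aa. The ratio of core to regulatory genes is the same on each of these scales by construction. In Nkd the core and regulatory medians of log2 fold change against GFP were -0.39 and -0.02. They were 0.04 and 0.21 once gene length offsets had taken out the trend of each library on exon length. In NkdΔ30aa they were -0.52 and -0.08, and 0.04 and 0.29 with the offsets. The core median thus stayed below the regulatory one in both groups. The offsets remove any difference that follows exon length, whatever its source, so the part of length in the ratio was not tested.

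**Figure D2:**
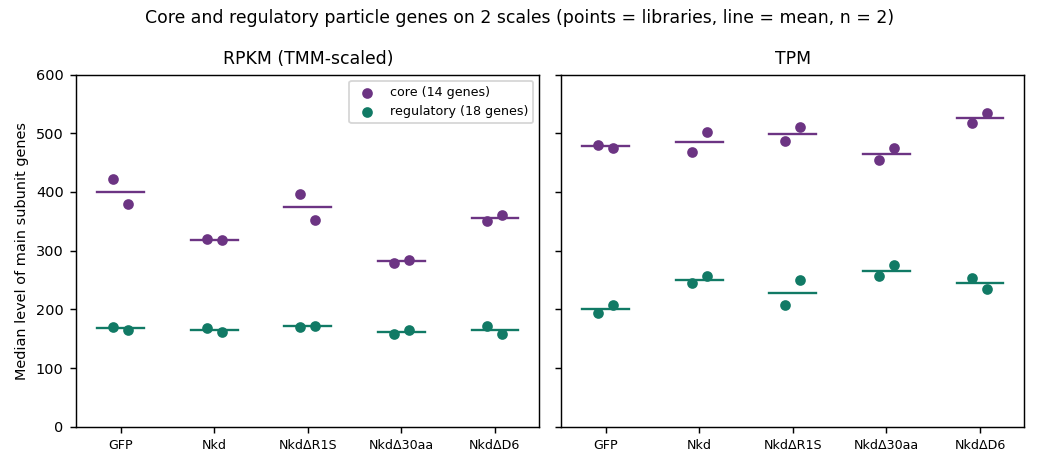
Median level of the 14 core and 18 regulatory genes in each library, on the TMM-scaled RPKM scale (left) and the TPM scale (right); points are libraries and lines group means, n = 2. On the left the core median falls from 401 in GFP to 282 in NkdΔ30aa with a level regulatory median, and on the right the regulatory median rises from 200 to 266.

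The subunits of a particle were more even in some groups than in others. Across the 18 regulatory genes the coefficient of variation of the level per length was 40.6% ± 3.29 in GFP disks (SD, n = 2), 27.6% ± 1.34 in Nkd, 35.4% ± 7.06 in NkdΔR1S, 18.3% ± 0.566 in NkdΔ30aa and 24.9% ± 3.47 in NkdΔD6. The highest regulatory gene was 6.07 ± 0.869 times the lowest in GFP and 1.89 ± 0.0617 times in NkdΔ30aa. *Rpn2*, the longest of them at 3412 bases, was the lowest in all 10 libraries. These groups also differed in the trend on gene length. Over all genes the correlation of length with relative level was -0.616 and -0.479 in GFP and 0.620 and 0.551 in NkdΔ30aa. The part of this trend in the evenness was not tested. Across the 13 core genes other than *Prosalpha1* the coefficient of variation was 14.8% ± 1.83 in GFP, 11.1% ± 0.628 in Nkd, 17.3% ± 1.25 in NkdΔR1S, 9.24% ± 1.92 in NkdΔ30aa and 9.67% ± 2.83 in NkdΔD6. Both NkdΔR1S libraries (18.2% and 16.4%) were thus above those of GFP (16.1% and 13.5%) here. Among the regulatory genes NkdΔR1S (40.3% and 30.4%) and GFP (42.9% and 38.2%) overlapped. The spread between the 2 libraries of a group was small for these genes, with a median SD of 0.0874 on the log2 scale for the 32 main subunits against 0.171 for all genes tested.

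Each Nkd group was compared with GFP to ask which proteasome genes follow its expression, by edgeR's quasi-likelihood test in 1 fit of the 10 libraries with Benjamini-Hochberg adjustment over 9264 genes. A gene was called at a fold over 1.5 and an adjusted p under 0.05. All 32 main subunits were tested, and of the paralogs *Prosalpha1R*, *Rpt3R* and *Rpt6R*. All 4 comparisons share the GFP libraries.

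In Nkd disks 1 of the 35 genes was called higher and 1 lower, against 3.05% of all genes called higher and 4.51% called lower. *Rpn2*, which encodes a large scaffold subunit of the base (FBgn0028692, 3R from 29153524 to 29157255), was the higher one. It was at 162 and 195 CPM in GFP disks, 332 and 314 in Nkd, 218 and 270 in NkdΔR1S, 391 and 410 in NkdΔ30aa, and 378 and 310 in NkdΔD6. Both GFP libraries were below the other 8. It rose 1.81-fold in Nkd disks (log2 fold change 0.85, SE 0.15, adjusted p = 0.0231, edgeR). The call was lost without GFP replicate 1 (log2 0.72), without Nkd replicate 2 (0.97) and without Nkd replicate 1 (0.92). The last is the library with the high salivary gland level. Calls over all genes also fell in each of these fits. *Rpn1*, the other large scaffold, was at 348 and 346 CPM in Nkd against 272 and 268 in GFP disks, which did not pass (log2 0.36, SE 0.12, adjusted p = 0.0640, edgeR). *Prosalpha1R* was the lower one, at 11.4 and 10.2 CPM in Nkd and 18.1 and 22.05 in GFP disks (log2 -0.90, SE 0.15, adjusted p = 0.0226, edgeR). Leaving out any 1 of these 4 libraries ended that call, while calls over all genes fell too, least without GFP replicate 2. *Rpt3R* was the next lowest (log2 -0.63, SE 0.26, adjusted p = 0.116, edgeR).

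In NkdΔ30aa disks 2 genes were called higher and 4 lower, against 18.2% and 12.8% of all genes. *Rpn2* rose 2.24-fold (log2 1.16, SE 0.15, adjusted p = 0.00105, edgeR). *Rpn5*, a structural subunit of the lid (FBgn0028690, 3R from 5789493 to 5791569), was at 311 and 325 CPM, against 179 and 214 in GFP, 223 and 236 in Nkd, 189 and 245 in NkdΔR1S and 359 and 300 in NkdΔD6 disks. The 4 NkdΔ30aa and NkdΔD6 libraries were above the other 6. It rose 1.62-fold in NkdΔ30aa (log2 0.69, SE 0.15, adjusted p = 0.00571, edgeR), a call lost without GFP replicate 1, where the log2 change was 0.57, and without NkdΔ30aa replicate 2, where the adjusted p was 0.0557. *Rpn1* rose by 0.58 on the log2 scale (SE 0.12, adjusted p = 0.00401, edgeR), just under the fold threshold. Marker lists shifted in the same comparison: 6 of 10 wing disk markers were called higher (median log2 0.70), and of 8 blood cell markers 3 were called higher with a list median of -0.53. None of 8 muscle genes was called, with a median of -1.58 and 6 at an unadjusted p under 0.05. The part of these shifts in the proteasome values was not tested.

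The 3 main subunits called lower in NkdΔ30aa were core genes. *Prosalpha4* (FBgn0004066, X from 16276270 to 16277587) was at 709 and 619 CPM in GFP, 474 and 463 in Nkd, 664 and 557 in NkdΔR1S, 425 and 373 in NkdΔ30aa, and 460 and 539 in NkdΔD6 disks. The NkdΔR1S values overlapped those of GFP and the other 6 lay below both. In NkdΔ30aa it was lower by a log2 fold change of -0.74 (SE 0.13, adjusted p = 0.00248, edgeR). *Prosbeta1*, a protease subunit, was at 286 and 277 CPM in NkdΔ30aa against 480 and 402 in GFP (log2 -0.65, SE 0.12, adjusted p = 0.00330, edgeR). *Prosbeta4*, a structural beta subunit (2L from 16731180 to 16732133), was at 232 and 227 CPM against 365 and 349 in GFP (log2 -0.64, SE 0.10, adjusted p = 0.00156, edgeR). The fold of *Prosbeta1* was under 1.5 without GFP replicate 1 (log2 -0.52), and that of *Prosbeta4* with RLE in place of TMM scaling (log2 -0.58). With the gene length offsets none of the 3 was called and *Prosbeta4* changed sign, at log2 changes of -0.26, -0.00 and 0.02 in the order above. The paralog *Rpt3R* was also lower, with 60 and 62 counts against 106 and 124 in GFP (log2 -1.09, SE 0.26, adjusted p = 0.00923, edgeR), and lost the call without either NkdΔ30aa library (adjusted p 0.0568 and 0.0570) and with the length offsets (0.0814).

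In NkdΔD6 disks 2 genes were called higher and 1 lower, against 10.4% and 5.81% of all genes. *Rpn2* rose 1.92-fold (log2 0.94, SE 0.15, adjusted p = 0.00950, edgeR) and *Rpn5* 1.68-fold (log2 0.75, SE 0.15, adjusted p = 0.0127, edgeR). Both calls were lost without GFP replicate 1 and without NkdΔD6 replicate 1, fits in which few or none of all genes kept a call. *Rpt3R* had 69 and 65 counts (log2 -0.84, SE 0.26, adjusted p = 0.0438, edgeR), and leaving out any 1 of the 4 libraries, RLE scaling or the length offsets ended the call (adjusted p 0.0615 to 0.199). *Rpt6R* had 0 and 1 counts against 8 and 8 in GFP, at or under the limit of 3 counts, and was not called (adjusted p = 0.0551, edgeR).

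In NkdΔR1S disks none of the 35 genes was called by edgeR, against 0.054% of all genes called higher and 0.119% called lower. At an unadjusted p under 0.05, 1 was higher and 4 were lower, where 10.6% and 9.32% of all genes were. DESeq2 on all libraries called more genes here, 378 in either direction against 16 by edgeR. *Prosalpha1R* was among them, as lower (log2 -0.77, adjusted p = 0.0127, DESeq2). By edgeR its log2 fold change was -0.83 (SE 0.15, adjusted p = 0.112), with 12.03 and 10.6 CPM against 18.1 and 22.05 in GFP. *Rpn2* was the highest main subunit here (log2 0.45, SE 0.14, adjusted p = 0.177, edgeR), and *Rpt6R*, with 16 and 6 counts against 8 and 8, had 0.49 (SE 0.91, adjusted p = 0.792). *Prosalpha1* was the lowest main subunit (log2 -0.38, SE 0.18, adjusted p = 0.269, edgeR).

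**Figure D3:**
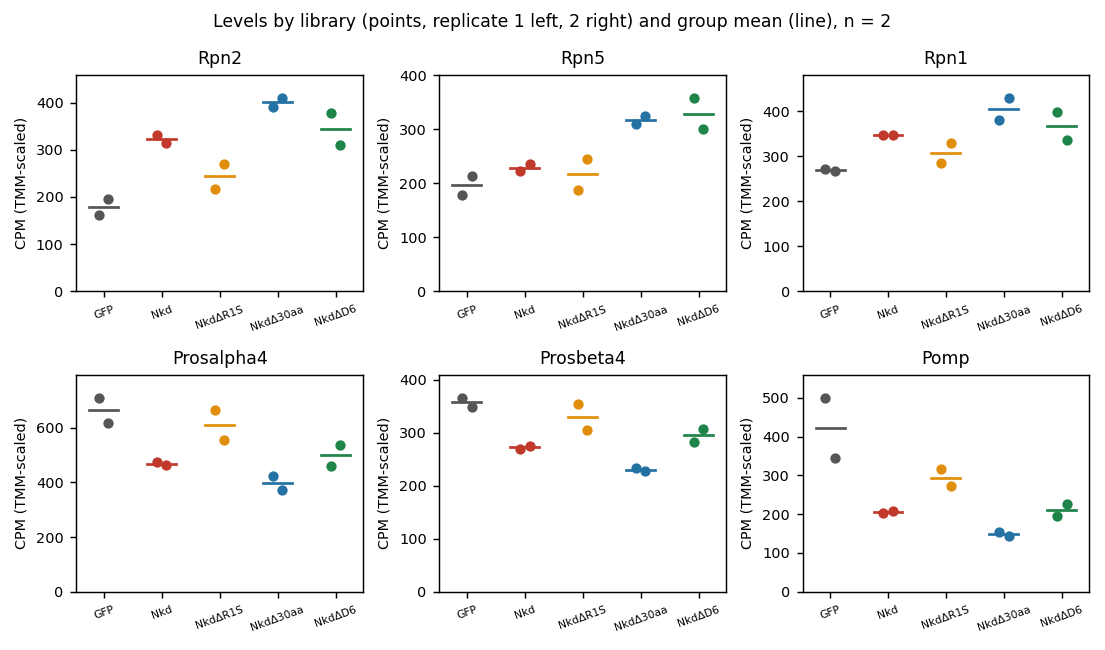
CPM of *Rpn2*, *Rpn5*, *Rpn1*, *Prosalpha4*, *Prosbeta4* and the assembly factor gene *Pomp* in each library, with group means as lines (n = 2). For *Rpn2* both GFP points (162 and 195 CPM) lie below all others, and for *Prosbeta4* the NkdΔ30aa points (232 and 227 CPM) are the lowest.

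The core genes shared a direction that few of them showed at the fold threshold. On the TMM scale, but not with gene length offsets, all 14 had a negative log2 fold change in each of the 4 comparisons with GFP, where 53.6% of all genes were negative for Nkd, 53.6% for NkdΔR1S, 56% for NkdΔ30aa and 56.5% for NkdΔD6. Their median was -0.39 in Nkd, -0.11 in NkdΔR1S, -0.52 in NkdΔ30aa and -0.19 in NkdΔD6, beside all-gene medians of -0.05, -0.03, -0.13 and -0.10. With gene length offsets the core medians were 0.04, 0.05, 0.04 and 0.19, and 2, 5, 3 and 1 of the 14 were negative, so that the direction turned. With RLE scaling 14, 11, 14 and 13 were negative. Without a fold threshold, core genes lower at an adjusted p under 0.05 numbered 8 in Nkd, 0 in NkdΔR1S, 14 in NkdΔ30aa and 1 in NkdΔD6, where 10.1%, 0.119%, 21.9% and 13.3% of all genes were. With RLE scaling they numbered 2, 0, 12 and 0. With the length offsets none was lower, and *Prosalpha2* was higher in both NkdΔ30aa and NkdΔD6. With any 1 library of the 2 groups left out, the core median was -0.27 to -0.30 in Nkd and -0.43 to -0.54 in NkdΔ30aa. In Nkd the core genes then no longer passed the adjusted threshold. Calls over all genes fell too, but least without GFP replicate 2, where most remained. The common direction was less steady in the other groups. With 1 library left out, 7 to 13 of the 14 were negative in NkdΔR1S (median -0.14 to -0.0016). In NkdΔD6, 12 to 14 were (-0.16 to -0.10). The fit without NkdΔR1S replicate 2 had 7 negative and 7 positive. The alpha and beta rings had like medians in NkdΔ30aa, -0.51 and -0.53.

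The protease subunit *Prosbeta5* was at 442 and 394 CPM in GFP and 300 and 311 in NkdΔ30aa disks (log2 -0.45, SE 0.10, adjusted p = 0.00672, edgeR). *Prosbeta2*, the other protease subunit, was at 363 and 360 CPM in GFP and 280 and 282 in NkdΔ30aa. *Prosalpha2* was at 365 and 342 CPM in GFP and 293 and 299 in NkdΔ30aa, the smallest core change on the TMM scale (log2 -0.25) and the largest, with the opposite sign, under the length offsets (0.35, adjusted p = 0.0260, edgeR). The ranges of GFP and NkdΔ30aa did not overlap for these genes, and 42.4% of all genes were lower without overlap.

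The regulatory genes had no common direction on the TMM scale, leaned higher with the length offsets and in TPM rose together with all genes. On the TMM scale their median log2 fold changes were -0.02, -0.02, -0.08 and 0.01 in the order Nkd, NkdΔR1S, NkdΔ30aa and NkdΔD6, with 10, 10, 11 and 8 of 18 negative. With the offsets the medians were 0.21, 0.13, 0.29 and 0.29, with 5, 3, 4 and 4 negative. In TPM, which shifted all genes upward, they were 0.32, 0.15, 0.38 and 0.32, beside all-gene medians of 0.30, 0.12, 0.33 and 0.21. None of 24 values of the 6 ATPase genes was called on the TMM scale, and they ran from -0.33 to 0.08. With the offsets they reached 0.36 in NkdΔ30aa, and *Rpt4* was at 0.30 there (adjusted p = 0.0303, edgeR) and at 0.32 in NkdΔD6 (0.0344). *Rpt4* was at 222 to 247 CPM and *Rpt1* at 306 to 342 CPM over all 10 libraries, the former with a highest value 1.11 times the lowest, against 2.53 times for *Rpn2*. The other base genes differed in sign in NkdΔ30aa on the TMM scale, whereas with the offsets all 4 were positive: *Rpn2*, *Rpn1* and the ubiquitin receptor gene *Rpn13* (log2 0.31, adjusted p = 0.0387, edgeR) were higher at the adjusted threshold, while the receptor gene *Rpn10* was at 204 and 227 CPM against 256 and 243 in GFP (log2 -0.21, adjusted p = 0.0783, edgeR), and at 0.16 with the offsets. The lid genes differed in sign as well. Beside *Rpn5*, which rose, *Rpn9* was lower at the adjusted threshold, at 273 and 278 CPM against 419 and 359 (log2 -0.50, adjusted p = 0.00756, edgeR), which the offsets brought to -0.25 (0.0716). *Rpn12*, the shortest regulatory gene at 995 bases, was at 220 and 220 CPM in NkdΔ30aa and 316 and 311 in GFP disks (log2 -0.51), and at 0.06 with the offsets. *Rpn9* shares 15.7% of its exon bases with another gene on the opposite strand, and whether its counts used strand is not stated.

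**Figure D4:**
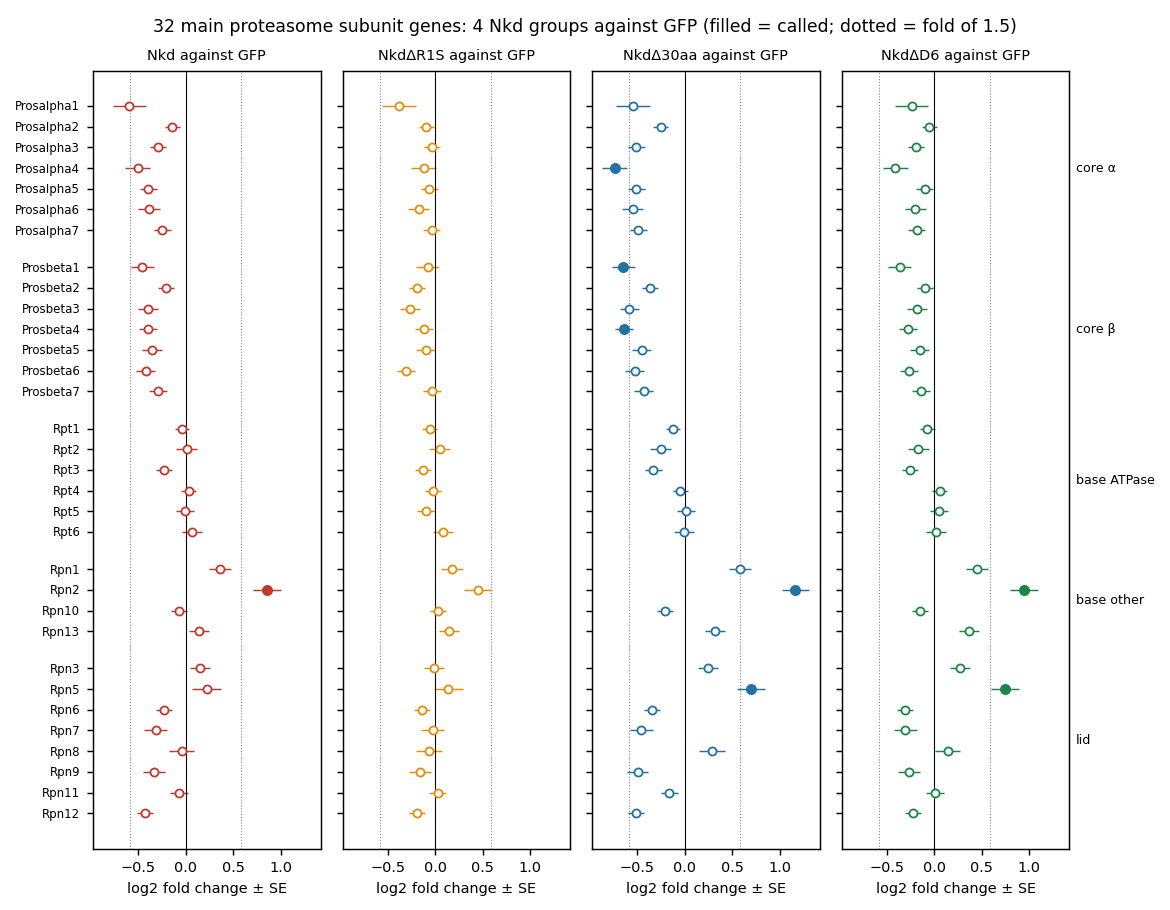
Log2 fold change ± SE of the 32 main subunit genes in each Nkd group against GFP, by position in the complex. Filled points were called, dotted lines mark a fold of 1.5. All 14 core genes lie left of 0 in each panel of this TMM-scaled fit (with length offsets 1 to 5 do), *Rpn2* is called in 3 panels and *Rpn5* in the NkdΔ30aa and NkdΔD6 panels.

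Fold change followed exon length among these genes. Over the 32 main subunits the rank correlation of exon length with log2 fold change was 0.76 in Nkd, 0.54 in NkdΔR1S, 0.79 in NkdΔ30aa and 0.50 in NkdΔD6, against 0.55, 0.43, 0.66 and 0.52 over all genes tested. The genes share libraries and are not independent, so these values carry no p. Within the 14 core genes it was 0.32 in NkdΔ30aa and within the 18 regulatory genes 0.53. *Rpn2* and *Rpn1*, with 3412 and 3041 bases, are the longest of the set. With the length offsets the correlations over the 32 genes were 0.36, 0.45, 0.32 and 0.23. *Rpn2* kept its calls under the offsets, at log2 changes of 0.67 (adjusted p = 0.0405, edgeR) in Nkd, 0.76 (0.00508) in NkdΔ30aa and 0.75 (0.0116) in NkdΔD6. *Rpn5*, whose 1897 bases are near the median of all genes, also kept them, at 0.85 (0.0128) in NkdΔ30aa and 0.91 (0.0183) in NkdΔD6. *Rpn8* (0.59, 0.0344) in NkdΔ30aa and *Rpn13* (0.59, 0.0163) in NkdΔD6 were called higher only with the offsets, so that the calls were 3 higher and 0 lower in both of these groups. Under the same offsets 4.93% of all genes were called higher and 4.72% lower in NkdΔ30aa, and 3.03% and 2.84% in NkdΔD6.

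**Figure D5:**
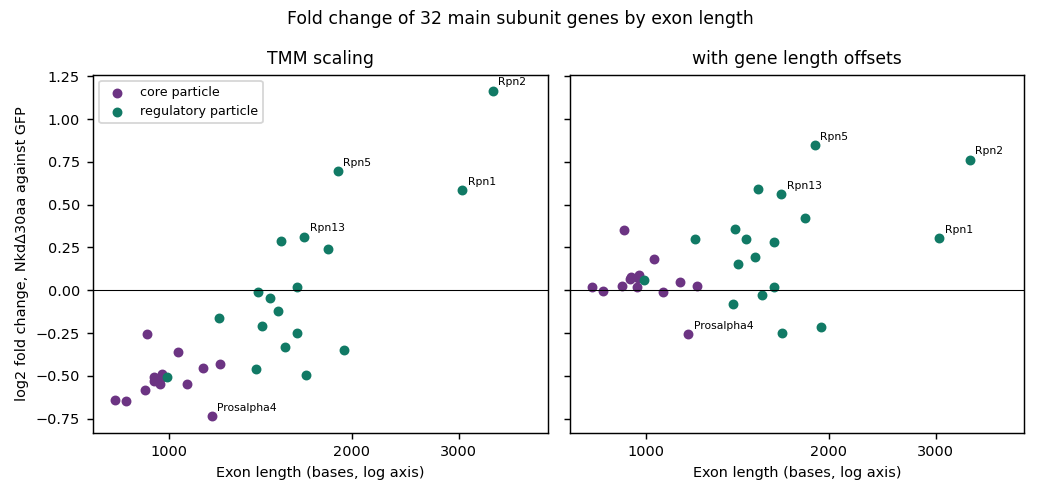
Log2 fold change in NkdΔ30aa against GFP by exon length (log axis) for the 14 core and 18 regulatory genes, with TMM scaling (left) and with gene length offsets (right). The rank correlation is 0.79 on the left and 0.32 on the right, where *Rpn2* (0.76) and *Rpn5* (0.85) stay the highest.

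The 3 deletion mutants were compared with full-length Nkd to ask how they differ from it. *nkd* was at 345 and 512 CPM in NkdΔR1S against 1141 and 1190 in Nkd, so there the missing region and a lower level cannot be told apart. The paper states that mutants cannot be compared quantitatively because their transgene levels vary. None of the 35 genes was called by edgeR in any of these comparisons, against 0.184%, 6.68% and 0.13% of all genes for NkdΔR1S, NkdΔ30aa and NkdΔD6. DESeq2 on all libraries called none either. At an unadjusted p under 0.05 there were 10 higher and 1 lower in NkdΔR1S, 3 higher and 4 lower in NkdΔ30aa, and 4 higher and 1 lower in NkdΔD6. Of all genes, 10.5% were higher and 5.16% lower at that threshold in NkdΔR1S, 19.4% and 7.75% in NkdΔ30aa, and 6.76% and 5.2% in NkdΔD6. In NkdΔR1S the extremes among main subunits were *Prosalpha4* (log2 0.38, SE 0.13, adjusted p = 0.215, edgeR), then *Rpn2* on the low side (-0.40, SE 0.14, adjusted p = 0.235) with *Rpn1* (-0.18, SE 0.12, adjusted p = 0.487). *Rpn5* was higher than in Nkd by 0.47 on the log2 scale in NkdΔ30aa (SE 0.15, adjusted p = 0.0834, edgeR) and by 0.52 in NkdΔD6 (SE 0.15, adjusted p = 0.322), with libraries that did not overlap in either. Of all genes, 35.2% and 26.5% were higher than in Nkd without overlap. *Prosalpha1R* had log2 differences of 0.55 (SE 0.15, adjusted p = 0.0545, edgeR) and 0.72 (SE 0.15, adjusted p = 0.174) in the same groups. *Rpt3R* had -0.46 (SE 0.26) and -0.21 (SE 0.26), with adjusted p of 0.297 and 0.771. *Rpt6R*, with 16 counts at most, had fitted differences of 0.69 (SE 0.91) in NkdΔR1S and -0.50 (SE 0.95) in NkdΔ30aa that are within their errors.

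Other genes of the pathway were taken from lists. Of 6 genes for assembly and activation, 2 were called lower in Nkd, 0 in NkdΔR1S, 3 in NkdΔ30aa and 2 in NkdΔD6. None was called higher. Of all genes, 4.51%, 0.119%, 12.8% and 5.81% were called lower in these groups, and 3.05%, 0.054%, 18.2% and 10.4% higher. *Pomp*, a chaperone of core assembly, was at 500 and 345 CPM in GFP, 202 and 209 in Nkd, 315 and 273 in NkdΔR1S, 154 and 144 in NkdΔ30aa, and 194 and 225 in NkdΔD6 disks. Both GFP libraries were above the rest. Its log2 fold change was -1.04 (SE 0.17, adjusted p = 0.0226, edgeR) in Nkd, -1.50 (SE 0.17, adjusted p = 0.000983) in NkdΔ30aa and -1.01 (SE 0.17, adjusted p = 0.0101) in NkdΔD6. With the length offsets it was called in NkdΔ30aa (-0.97, adjusted p = 0.00364, edgeR) and NkdΔD6 (-0.65, 0.0186) and not in Nkd (-0.66, 0.0562). Without GFP replicate 1 only the NkdΔ30aa call remained (-1.21). The calls in Nkd and NkdΔD6 were also lost without either Nkd library (log2 -0.90 and -0.97) and without NkdΔD6 replicate 1 (-0.82). Over all genes, few calls or none remained in these Nkd and NkdΔD6 fits. *Sem1*, a short lid subunit outside the symbol rule, was lower in the same 3 groups (log2 -0.62, -1.07 and -0.71, adjusted p = 0.0342, 0.00129 and 0.0146, edgeR), but at -0.06, -0.21 and -0.16 with the offsets and called in none. Its calls in Nkd and NkdΔD6 were also lost without GFP replicate 1 (adjusted p = 0.170 and 0.0859), without either Nkd library (0.143 to 0.164) and without NkdΔD6 replicate 1 (0.132).

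Among 4 genes that regulate proteasome genes, *maf-S*, the partner of the Nrf-type factor Cnc, was lower in Nkd, NkdΔ30aa and NkdΔD6 (log2 -0.99, -0.93 and -0.87, adjusted p = 0.0226, 0.00216 and 0.0111, edgeR). With the offsets it was not called in any. Its calls in Nkd and NkdΔD6 were lost without GFP replicate 1 (log2 -0.74 and -0.62), where few genes kept a call. Leaving out either Nkd library (-0.83 and -0.95) or NkdΔD6 replicate 1 (-0.75) ended the respective call. *cnc* rose in NkdΔ30aa on the TMM scale (log2 0.76, adjusted p = 0.00545, edgeR) and had a log2 change of -0.50 with the offsets, so its direction depends on the scaling. Of 12 genes of ubiquitin supply and delivery, the ubiquitin fusion genes *RpS27A* (-0.80, adjusted p = 0.00127, edgeR) and *RpL40* (-0.83, 0.00139) were lower and the activating enzyme gene *Uba1* (0.68, 0.00218) higher in NkdΔ30aa, at -0.03, -0.09 and 0.01 with the offsets. Of the COP9 signalosome, a complex built like the lid, 8 of 9 genes were tested. In Nkd, NkdΔR1S, NkdΔ30aa and NkdΔD6, 1, 0, 3 and 1 of them were called lower. Of all genes, 4.51%, 0.119%, 12.8% and 5.81% were. *CSN8* was lower in the 3 groups with calls (log2 -0.77, -0.87 and -0.66, adjusted p = 0.0229, 0.00142 and 0.0125, edgeR). Its calls in Nkd and NkdΔD6 were lost without GFP replicate 1 (log2 -0.68 and -0.57), where few genes kept a call. Leaving out either Nkd library (-0.66 and -0.68) or NkdΔD6 replicate 1 (-0.45) ended the respective call. *CSN8* was not called with the offsets, whereas *alien*, the subunit 2 gene, kept its NkdΔ30aa call (-0.97, 0.00420, edgeR).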

How the data were processed

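Raw counts per gene and exon lengths were used as deposited by the authors, with HISAT2 2.2.1 as aligner, BDGP6 as genome and featureCounts as counter. Strand and multiple-match settings of the counter: not given in the sources used here. All 10 library tables equalled the series table. Gene symbols came from a FlyBase-based name table (17710 of 17807 IDs matched). Members, lists and thresholds were chosen with earlier results of these data known. Counts were fitted in R 4.3.3 with edgeR 4.0.16 (TMM, filterByExpr, robust quasi-likelihood, 5 residual degrees of freedom, sqrt common dispersion 0.291). The SE is the log2 fold change divided by the square root of F. Full statistics are given for called members (at most the 6 largest) and for the 2 highest and 2 lowest of each comparison. Alternatives were RLE, no filter, DESeq2 1.42.0, 2-group fits, a replicate block, length offsets (lowess, span 0.3, prior count 2), other thresholds, TPM and leaving out each library. The code was tested on simulated data. Columns of unassigned samples numbered 0. Sequences were not used here.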

Additional observations from a re-analysis of the deposited data

How the results depend on the processing

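The core median in GFP disks was 478 on the TPM scale and 401 on the RPKM scale. With edgeR on the libraries of the 2 groups alone, Nkd against GFP had 0 genes higher and 0 lower, NkdΔ30aa 2 lower and NkdΔD6 0 lower. DESeq2 on the 2 groups gave 2 lower in NkdΔ30aa and 0 in NkdΔD6, and DESeq2 on all libraries 0 lower in NkdΔD6 and 1 in NkdΔR1S. In NkdΔR1S that fit called 378 genes in either direction, where edgeR called 16. Length offsets gave 0 lower in Nkd, NkdΔ30aa and NkdΔD6, and *Prosbeta4* in NkdΔ30aa was then at a log2 change of 0.0179. RLE scaling and no filter each gave 0 lower in NkdΔD6. Without a fold threshold, 10 were lower in Nkd, 4 higher and 20 lower in NkdΔ30aa, and 4 higher and 3 lower in NkdΔD6. At an unadjusted p under 0.05 with the fold threshold, 3 were lower in Nkd, 1 in NkdΔR1S and 2 in NkdΔD6, and 1 was higher and 1 lower in NkdΔD6 against Nkd. Against GFP, leaving out 1 library ended the lower calls in Nkd and NkdΔD6. For some libraries it also ended higher calls in Nkd, NkdΔ30aa or NkdΔD6. In Nkd the calls over all genes fell as well, least without GFP replicate 2. In NkdΔD6 few or none remained without GFP replicate 1 or NkdΔD6 replicate 1. Most remained without GFP replicate 2 or NkdΔD6 replicate 2. With 1 library left out, the log2 fold change of *Prosalpha1* in NkdΔR1S against GFP ran from -0.63 to 0.0127 and turned without GFP replicate 2. That of the scarcely counted *Rpt6R* ran from -1.13 to 0.30 in NkdΔ30aa against Nkd, turning without Nkd replicate 1, and from -0.39 to 1.10 and -0.27 to 1.54 in NkdΔR1S against GFP and against Nkd, turning without NkdΔR1S replicate 1. The cause of these changes was not tested beyond the construction of each alternative.

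Same-numbered libraries deviated from their group means with correlations of -0.223 to 0.374 over 10 pairs of groups, 5 of them over 0.1. Since not every pair passed 0.1 and no source ties a number to a batch, the numbers were not used to pair samples. With the replicate number as a block, core genes lower without a fold threshold numbered 5 in place of 8 in Nkd and 0 in place of 1 in NkdΔD6. With it 0 genes were called lower in NkdΔD6 (*Rpt3R*, adjusted p = 0.0670, edgeR), and the other counts of called genes did not change.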
